A study of Homo sapiens with 8 samples.

Results

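A set of 10 immediate early genes of the EGR, IER and NR4A families and their close partners were followed across 8 expression arrays of a lung adenocarcinoma cell line and its drug-resistant derivatives. The members were taken by gene symbol from the array's probe table, with the brightest probe set standing for each gene and the others used as a check. Of 10 members, 9 (EGR1, EGR3, IER2, IER3, IER5, NR4A1, ZFP36, ZFP36L1 and PLK2) had a probe set that carried their symbol alone, out of 18132 genes represented. EGR2 had none and was not analysed here. EGR3 lay below 5.36, the floor for testing, on all 8 arrays, which left 8 members among 10527 tested genes.

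The cells were H3122, a human lung adenocarcinoma line driven by the EML4-ALK fusion kinase, and H3122-LR2 and H3122-LR3, which are resistant to the ALK inhibitor ceritinib. Parental and LR2 cells were measured untreated, with crizotinib and with ceritinib, and LR3 cells untreated and with ceritinib. Both agents inhibit ALK, and the dose was 1000 nM and the time 6 h for each. Each of the 8 conditions had 1 array, so single differences carry no replicate error. Values are log2 signals deposited by the authors, and "difference" means a difference of log2 signals. The sources used here do not give whether the resistant lines are single clones or were kept in ceritinib before the experiment. The arrays measure RNA of whole cultures, so less RNA per cell and fewer cells with the transcript cannot be told apart.

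Immediate early genes are switched on within minutes of a growth signal, without new protein synthesis. In cells driven by EML4-ALK the fusion kinase feeds the RAS and ERK cascade, whose end product phosphorylates ETS-family factors that sit with serum response factor (SRF) on the CArG boxes of such promoters. The transcripts and many of the proteins are short-lived, so their levels follow the activity of the pathway closely. EGR1, EGR2 and EGR3 are zinc finger transcription factors, and NR4A1 is an orphan nuclear receptor. IER2, IER3 and IER5 are small induced proteins, ZFP36 and its relative ZFP36L1 bind AU-rich elements and speed the decay of messenger RNAs, and PLK2 is a polo-like kinase.

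Array medians lay between 5.31 and 5.36, except for 5.46 on the LR2 ceritinib array, so differences of this array minus another run high. The median over all tested genes of LR2 ceritinib minus untreated was 0.10. Where this array is subtracted the differences run low, with a median of -0.07 for LR3 minus LR2 on ceritinib. All 6 epithelial markers examined were above the floor, with KRT8 between 13.30 and 13.73 and EPCAM between 12.22 and 12.52. NKX2-1, a lung lineage factor, lay between 10.38 and 11.25. Of 10 markers of fibroblasts, leukocytes and endothelial cells 3 passed the floor (CD68, VWF and CDH5, at most 6.43), while PTPRC, COL3A1 and DCN stayed at or below 3.36. The summed signals of these types ranged over 5.94 to 6.27, 6.08 to 6.25 and 7.09 to 7.31 across the arrays. The summed signal of 3 lung adenocarcinoma markers was higher on all 5 inhibitor arrays than on the untreated array of the line, by line 10.77 untreated against 11.19 and 11.34 in parental cells, 10.66 against 11.22 and 11.14 in LR2, and 10.55 against 10.96 in LR3. Its part in the results was not tested.

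The windows just upstream of 3 member genes are shown, EGR1 and PLK2 for the lowest inhibitor differences among the members with a window, and IER2 for the separation of its treated and untreated arrays described further on. Each is 250 bases, ending at the base before the annotated start, from RefSeq on GRCh38.p14. Capitals mark matches on either strand to the CArG box, to TGACG (the short form of the cAMP response element), to the ETS core CCGGAA or to the EGR element GCGNGGGCG, and the full cAMP response element TGACGTCA contains the short form. The EGR1 window is chr5:138465229-138465478 (plus strand), the IER2 window chr19:13150161-13150410 (plus strand) and the PLK2 window chr5:58460087-58460336 (minus strand).
EGR1: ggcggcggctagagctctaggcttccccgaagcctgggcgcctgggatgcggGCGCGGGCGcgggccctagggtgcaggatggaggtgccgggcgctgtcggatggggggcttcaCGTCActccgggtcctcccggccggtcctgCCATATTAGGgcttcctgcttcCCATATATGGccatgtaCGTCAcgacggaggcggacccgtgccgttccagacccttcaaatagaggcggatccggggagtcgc
IER2: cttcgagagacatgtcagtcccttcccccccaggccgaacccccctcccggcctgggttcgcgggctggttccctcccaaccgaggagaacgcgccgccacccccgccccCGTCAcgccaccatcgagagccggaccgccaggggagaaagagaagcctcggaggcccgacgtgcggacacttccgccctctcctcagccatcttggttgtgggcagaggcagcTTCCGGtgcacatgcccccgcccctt
PLK2: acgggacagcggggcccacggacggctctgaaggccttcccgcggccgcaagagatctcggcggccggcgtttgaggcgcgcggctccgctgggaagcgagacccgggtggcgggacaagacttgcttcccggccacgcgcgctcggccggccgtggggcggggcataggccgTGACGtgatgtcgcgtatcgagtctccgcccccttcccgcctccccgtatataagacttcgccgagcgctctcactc

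EGR1 held 2 CArG boxes, which begin 105 and 83 bases upstream of the start, 2 short elements and 1 EGR element. A CArG box was found in 1.16% of all 35114 listed promoter windows of this length. IER2 held 1 short element and 1 ETS core, and PLK2 1 short element. The short element occurred in 21.2% of all windows, the ETS core in 14.5%, the EGR element in 8.41% and the full cAMP response element in 1.65%. Over the 12 start sites of the 8 members that matched the promoter table (EGR3 and IER3 did not match), a CArG box was found in 2, at EGR1 and EGR2. The full cAMP response element was found in 1, at ZFP36L1. A match describes the letters of the window and is not a measured site.

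EGR1 had the widest span of the members. Its signal was 8.82 in untreated parental cells, 5.0 with crizotinib and 4.41 with ceritinib. In LR2 it was 8.43 untreated, 5.11 with crizotinib and 6.95 with ceritinib, and in LR3 it was 7.39 untreated and 7.38 with ceritinib. The 3 lowest arrays, all below the floor, were the parental arrays with either agent and the LR2 array with crizotinib. The LR2 ceritinib array lay between these and the untreated arrays, and the LR3 arrays were level with each other.

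**Figure D1:**
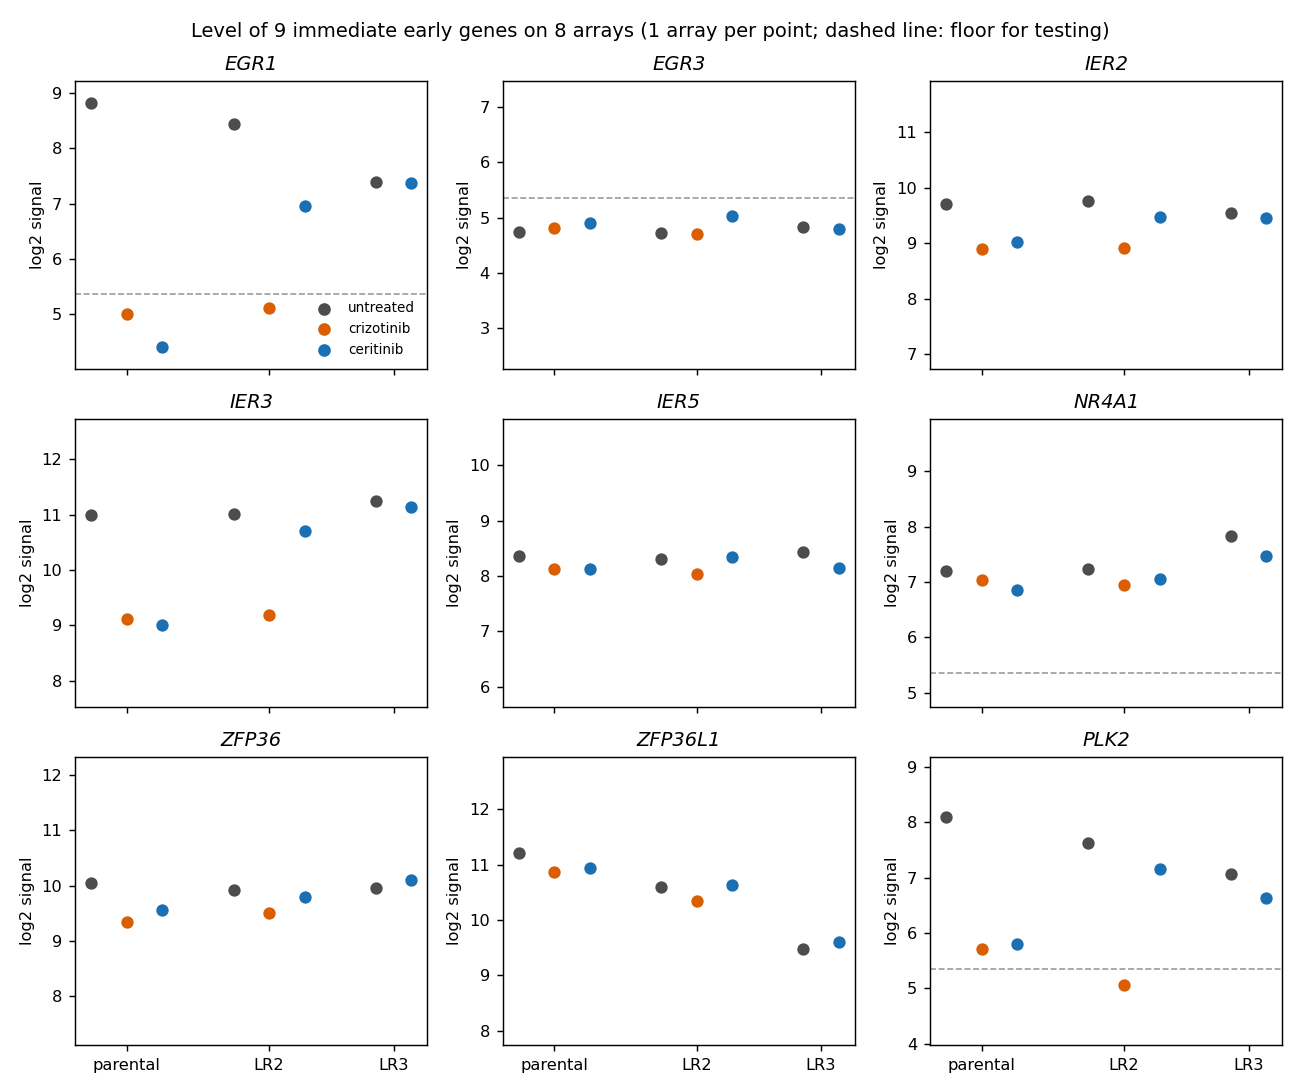
Log2 signal of the 9 measured members on 8 arrays, by line on the x axis and by agent in colour, each point 1 array and each panel the same height in log2 units; the dashed line is the floor of 5.36. EGR1, IER3 and PLK2 are low on the parental inhibitor arrays and the LR2 crizotinib array, while ZFP36L1 steps down from parental to LR2 to LR3.

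Measured against the untreated array of the same line, EGR1 differed by -3.82 with crizotinib and -4.41 with ceritinib in parental cells. In LR2 the differences were -3.32 with crizotinib and -1.48 with ceritinib (2.79-fold lower), and in LR3 the difference was -0.01 with ceritinib. The values of 5.0, 4.41 and 5.11 are below the floor, so the sizes of the differences that use them are not exact. Set against the floor of 5.36 in their place, EGR1 was at least 11-fold lower with either agent in parental cells and at least 8.4-fold lower in LR2 with crizotinib. EGR1 was the only 1 of 10527 tested genes (0.0095%) to be at least 2-fold lower in LR2 cells with ceritinib, and it was 1 of 2 with each array centred on its median.

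IER3, a stress-inducible protein linked to survival and ERK signalling, was low on the same 3 arrays. Its signal was 11.0 in untreated parental cells, 9.12 with crizotinib and 9.0 with ceritinib. In LR2 it was 11.01, 9.18 and 10.70 in the same order, and in LR3 11.25 untreated and 11.14 with ceritinib. Differences from the untreated array were -1.88 and -2.0 in parental cells (3.68-fold and 4-fold lower) and -1.83 in LR2 with crizotinib (3.56-fold lower). With ceritinib they were -0.31 in LR2 and -0.11 in LR3, so in both resistant lines the ceritinib array lay within 0.31 of the untreated one.

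PLK2 had signals of 8.09 untreated, 5.71 with crizotinib and 5.80 with ceritinib in parental cells. It had 7.63, 5.07 and 7.16 in LR2, and 7.07 untreated and 6.63 with ceritinib in LR3. The parental differences were -2.38 and -2.29 (5.21-fold and 4.89-fold lower) and the LR2 crizotinib difference was -2.56, at least 4.82-fold lower when the 5.07 below the floor is replaced by the floor. The ceritinib differences were -0.47 in LR2 and -0.44 in LR3. Its untreated level was highest in parental cells and lowest in LR3, 1.02 apart.

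IER2, a nuclear protein of the same early class, had smaller differences in the same arrays. It was at 9.71, 8.89 and 9.02 in parental cells without inhibitor, on crizotinib and on ceritinib, at 9.77, 8.92 and 9.47 in LR2, and at 9.55 and 9.45 in LR3 untreated and with ceritinib. Every inhibitor array lay below every untreated array, at most 9.47 against at least 9.55. EGR1 was the other member with this separation, by the 0.01 between the LR3 arrays, against 1.72% of all tested genes. With each array centred on its median 4 of 8 members were so separated, and the share of all tested genes after centring is not given here.

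ZFP36, which encodes the RNA-decay factor tristetraprolin, was at 10.04, 9.34 and 9.55 in parental cells without inhibitor, on crizotinib and on ceritinib. It was at 9.92, 9.51 and 9.80 in LR2, and at 9.95 and 10.10 in LR3. Its differences were -0.70 and -0.49 in parental cells, -0.41 and -0.12 in LR2, and 0.15 in LR3. IER5, a regulator of the heat shock factor HSF1, stayed between 8.04 and 8.43 on all arrays, with differences of -0.29 to 0.03. NR4A1 had differences of -0.16 and -0.34 in parental cells, -0.29 and -0.18 in LR2 and -0.35 in LR3. With each array centred on its median the IER5 and ZFP36L1 differences in LR2 with ceritinib turned from 0.03 to -0.09 and from 0.05 to -0.07.

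Counted together, 3 of 8 tested members were at least 2-fold lower in each of 3 arrays: parental with crizotinib (0.741% of all tested genes), parental with ceritinib (0.902%) and LR2 with crizotinib (0.693%). These were EGR1, IER3 and PLK2 each time. In LR2 with ceritinib 1 of 8 was, and in LR3 with ceritinib 0 of 8 (0% of all tested genes). Median differences over the 8 members were -0.76, -0.59, -0.63, -0.24 and -0.10 in that order, against 0.04, 0.02, 0.01, 0.10 and 0.01 over all tested genes. In all 5 inhibitor arrays 5 of 8 members were below the untreated array of their line, against 8.08% of all tested genes. With each array centred on its median 6 of 8 were, and the share of all tested genes after centring is not given here.

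**Figure D2:**
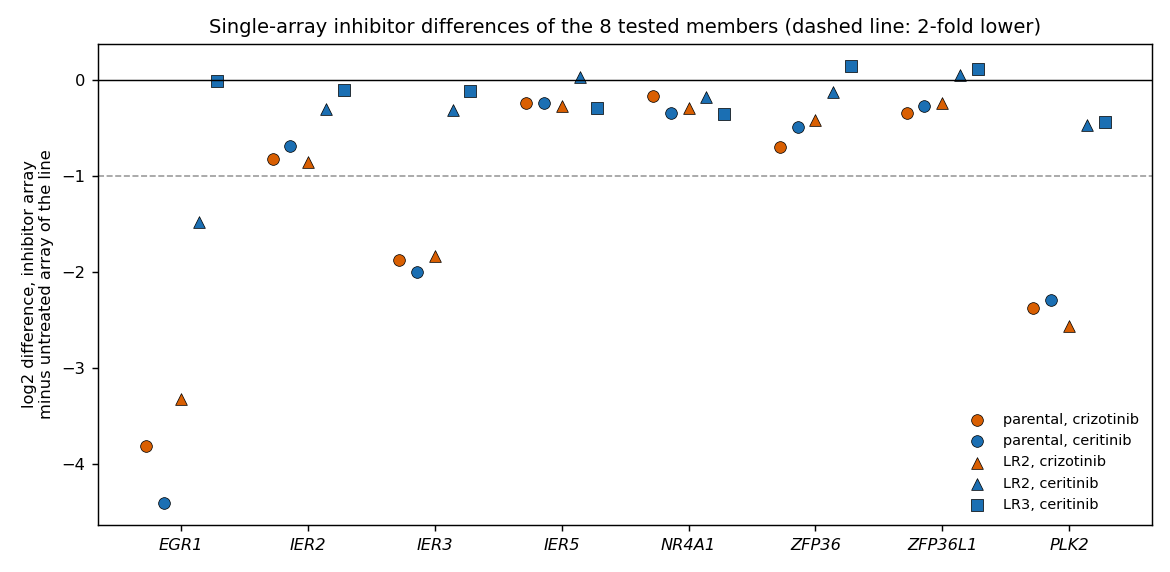
Log2 difference of each inhibitor array from the untreated array of its line for the 8 tested members; circles are parental, triangles LR2 and squares LR3 cells, orange crizotinib and blue ceritinib, 1 array against 1 array. For EGR1, IER3 and PLK2 the parental points and the LR2 crizotinib point lie between -4.41 and -1.83, and the LR2 and LR3 ceritinib points between -1.48 and -0.01.

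The response to either inhibitor was tested with limma, first across the 3 lines and then within each line with both agents counted as 1 condition. The error of the test across lines takes in differences of response between lines and between agents. Across lines 0 of 8 members passed an adjusted p of 0.05, against 3.28% of all tested genes (3.02% called higher and 0.256% lower), and 6 of 8 had an unadjusted p under 0.05, against 25.4%. Centring each array on its median left 0 of 8 called, and the share of higher genes among all calls went from 92.2% of 345 to 54.5% of 145. EGR1 differed by -2.37 ± 0.67 (SE, lower in 5 of 5 inhibitor arrays, limma adjusted p = 0.0887). PLK2 differed by -1.52 ± 0.47 (5 of 5, adjusted p = 0.103), IER3 by -1.12 ± 0.38 (5 of 5, adjusted p = 0.125), IER2 by -0.51 ± 0.15 (5 of 5, adjusted p = 0.0918) and NR4A1 by -0.27 ± 0.07 (5 of 5, adjusted p = 0.064). ZFP36 and ZFP36L1 had adjusted p of 0.24 and 0.495, and IER5 of 0.153. For EGR1 the estimate averages over single-array differences that ranged from -4.41 to -0.01, and with the mean of all its probe sets it was -1.25.

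This result depended on single arrays. Without the LR2 ceritinib array 5 of 8 members were called, against 9.76% of all tested genes (IER2, IER3, IER5, NR4A1 and PLK2, with differences of -0.59, -1.36, -0.26, -0.29 and -1.83). Without either LR3 array EGR1 alone was called, at -3.26 (3.93% of all tested genes called). Without the untreated parental array EGR1 differed by -1.38 (adjusted p = 0.463) and IER3 by -0.66 (adjusted p = 0.585). With the crizotinib and untreated arrays of parental and LR2 cells alone, a choice made after the data were seen, IER3 and PLK2 were called at -1.85 and -2.47 (adjusted p = 0.0491 for both, 0.142% of all tested genes called), and EGR1 differed by -3.57 without a call.

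Within parental cells 0 of 8 members were called, as was the case for 0% of all tested genes, and 5 of 8 had an unadjusted p under 0.05 in limma, against 17.6% of all tested genes. The parental estimates were -4.12 ± 0.72 for EGR1 (lower in 2 of 2 arrays, adjusted p = 0.142), -2.34 ± 0.78 for PLK2, -1.94 ± 0.57 for IER3, -0.76 ± 0.23 for IER2 and -0.59 ± 0.16 for ZFP36. In LR2 0 of 8 members were called (0% of all genes called), and EGR1 alone had an unadjusted p under 0.05 (9.64%). EGR1 differed by -2.40 ± 0.72 there (adjusted p = 0.485), with the 2 agents 1.84 apart. In LR3, with 1 inhibitor array, 0 of 8 members were called (0% of all genes called) and 0 had an unadjusted p under 0.05 (4.74%). EGR1 differed by -0.01 ± 0.84, with a 95% interval of -2.11 to 2.09. This error comes from the gap between the agents in parental and LR2 cells, because LR3 had 1 array in each arm.

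The difference between responses was tested directly, with the spread again taken from the gap between agents in parental and LR2 cells. The EGR1 response in LR3 was 4.11 ± 1.11 above that of parental cells (95% interval 1.33 to 6.88, unadjusted p = 0.0119, limma adjusted p = 0.91). ZFP36 differed by 0.75 ± 0.25 in the same test (unadjusted p = 0.0275, adjusted p = 0.91), and IER3 by 1.83 ± 0.88. None of 8 members was called (0% of all genes called), and 2 had an unadjusted p under 0.05 (4.8%). For LR2 the EGR1 response was 1.72 ± 1.02 above the parental one (interval -0.85 to 4.28), and 0 of 8 members were called (0% of all genes called) or had an unadjusted p under 0.05 (2.38%).

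Crizotinib and ceritinib, given at the same dose and time, were compared in the 2 lines that had both. In parental cells ceritinib minus crizotinib was between -0.18 and 0.21 for 7 of 8 tested members, and both EGR1 values were below the floor, so its difference has no readable size. In LR2 it was 2.09 for PLK2, 1.84 for EGR1, 1.52 for IER3, 0.55 for IER2 and 0.29 for ZFP36. These 3 of 8 members (EGR1, IER3 and PLK2) were at least 2-fold higher with ceritinib than with crizotinib in LR2, against 0.503% of all tested genes, and 0 of 8 were in parental cells (0.019%). In LR2 6 of 8 members were ordered crizotinib, ceritinib, untreated from low to high, against 14.8% of all tested genes. IER5 and ZFP36L1 were the exceptions. With each array centred on its median 7 of 8 were so ordered, IER5 and ZFP36L1 among them. NR4A1 was then the exception, with ceritinib minus crizotinib at -0.01. The share of all tested genes so ordered after centring is not given here.

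In a fit of all 8 arrays with terms for line and agent, limma called 0 of 8 members between the agents (0% of all tested genes). An unadjusted p under 0.05 was reached by 3 (PLK2, IER2 and ZFP36), against 6.05% of all tested genes. LR3, without a crizotinib array, is part of this fit, so its estimates are not averages over the 2 lines with both agents. The differences were 1.25 ± 0.42 for PLK2 (adjusted p = 0.771), 1.11 ± 0.79 for EGR1 (adjusted p = 0.849), 0.87 ± 0.39 for IER3 (adjusted p = 0.791) and 0.41 ± 0.13 for IER2 (adjusted p = 0.771). The 95% interval for EGR1 ran from -0.70 to 2.93. Without the parental ceritinib array 4 of 8 members were called, against 3.81% of all tested genes. They were EGR1 at 2.5, PLK2 at 2.04, IER3 at 1.60 and IER2 at 0.61. LR2 was then the only line with both agents, but the LR3 ceritinib array also entered the fit. In LR2 alone the EGR1 difference was 1.84. The agent test was 1 comparison of 1 pair of agents. Whether ceritinib acted differently in LR2 was tested, by a choice made after the data were seen, with a term of its own for the LR2 ceritinib array beside line and agent. This term sets that array against a ceritinib effect shared by parental and LR3 cells. It called 0 of 8 members (0% of all tested genes), and 1 (IER5, at 0.30 ± 0.12) had an unadjusted p under 0.05, against 6.07%. It was 0.97 ± 1.34 for EGR1 (95% interval -2.24 to 4.18, limma adjusted p = 0.871), 0.91 ± 0.60 for IER3 and 1.15 ± 0.60 for PLK2 (adjusted p = 0.771 and 0.767).

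Between lines, ZFP36L1 and NR4A1 passed the test, whose error is the departure of single arrays from summed terms for line and agent. ZFP36L1, a decay factor with roles in differentiation and cell cycle exit, had signals of 11.21, 10.87 and 10.94 in parental cells without inhibitor, on crizotinib and on ceritinib. It had 10.59, 10.35 and 10.64 in LR2, and 9.48 untreated and 9.60 with ceritinib in LR3. The 3 lines did not overlap, and the share of all tested genes for which this holds is not given here. It fell by 0.48 ± 0.09 in LR2 (lower in 3 of 3 matched arrays, limma adjusted p = 0.00762) and by 1.54 ± 0.10 or 2.92-fold in LR3 (2 of 2, adjusted p = 0.000104). LR3 was also lower than LR2, by -1.06 ± 0.10 (adjusted p = 0.000632).

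NR4A1 was at 7.20, 7.04 and 6.86 in parental cells without inhibitor, on crizotinib and on ceritinib, and at 7.23, 6.94 and 7.05 in LR2. In LR3 it was at 7.83 untreated and 7.48 with ceritinib, above all other arrays, again without a share of all tested genes to set beside it. It rose by 0.59 ± 0.09 or 1.51-fold in LR3 against parental cells (higher in 2 of 2 matched arrays, limma adjusted p = 0.00441). Against LR2 it rose by 0.55 ± 0.09 (adjusted p = 0.00543). LR2 and parental cells differed by 0.04 ± 0.08 (interval -0.14 to 0.22).

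**Figure D3:**
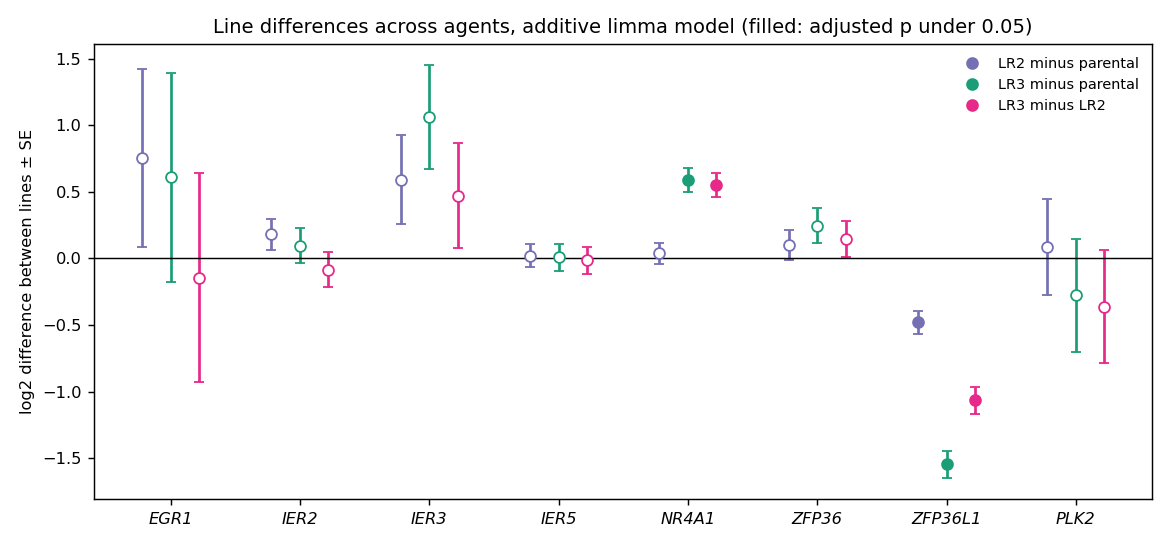
Log2 differences between lines for the 8 tested members, as estimates ± SE of limma over 8 arrays; filled points passed an adjusted p of 0.05. ZFP36L1 lies at -0.48, -1.54 and -1.06 for LR2 minus parental, LR3 minus parental and LR3 minus LR2, and NR4A1 at 0.59 and 0.55 for both comparisons of LR3.

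These were 1 of 8 members called in LR2 (22.5% of all tested genes called, 9.68% called lower) and 2 of 8 in LR3 (21.6% of all tested genes called, 9.53% higher and 12.1% lower). Between LR3 and LR2 2 of 8 were called, against 19.6%, so the counts are near the background. Higher genes made up 57% of all calls in LR2, 44.1% in LR3 and 37.2% between LR3 and LR2. In the same order these shares were 45.6%, 44.7% and 47.5% with quantile normalization, and 50.3%, 55.1% and 53.9% with each array centred on its median. IER3 in LR3 was 1.06 ± 0.39 above parental cells without a call (adjusted p = 0.0908), and it was called at 1.53 without the untreated parental array. The ZFP36L1 call in LR2 was lost without either crizotinib array of parental or LR2 cells (adjusted p = 0.0593 for each). It was also lost with the mean of its probe sets, at -0.16 (adjusted p = 0.112). That mean includes the dim probe sets described further on. The NR4A1 calls were lost without the untreated LR3 array (adjusted p = 0.0525 against parental, 0.0617 against LR2). With the arrays of matched agents alone, both LR3 calls against parental cells were lost at values of 0.62 for NR4A1 and -1.53 for ZFP36L1 (adjusted p = 0.0966 for each). The NR4A1 call against LR2 was lost there too, at 0.52 (adjusted p = 0.0624).

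The single-array line differences of EGR1 had opposite signs with and without ceritinib. Untreated, LR3 was 1.43 below parental cells (a difference of -1.43, 2.69-fold), and with ceritinib it was 2.97 above. LR2 differed from parental cells by -0.39 untreated, 0.11 with crizotinib and 2.54 with ceritinib. For PLK2 they were -1.02 and 0.83 in LR3, and -0.46, -0.64 and 1.36 in LR2, in the same order. Across agents limma gave 0.61 ± 0.79 for EGR1 in LR3 and 0.75 ± 0.67 in LR2, and -0.28 ± 0.42 and 0.09 ± 0.36 for PLK2, with no call. Over 17 alternatives the EGR1 value ranged from -0.86 to 2.08 in LR3, with 3 changes of sign, and from -0.35 to 1.60 in LR2, with 1. Without the parental ceritinib array PLK2 was called lower in both lines, at -1.07 in LR3 and -0.55 in LR2.

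Other probe sets of the members were compared with the brightest. All 6 EGR1 probe sets were lower with either agent in parental cells, from -4.41 to -0.48, and in LR2 with ceritinib all 6 were lower, from -1.75 to -0.15. In LR3 with ceritinib 3 were lower and 3 higher, from -0.11 to 0.24. All 4 PLK2 probe sets were lower in each of the 5 inhibitor arrays. All 7 NR4A1 probe sets were lower with either agent in parental cells and with crizotinib in LR2, whereas in LR2 with ceritinib 2 were lower and 5 higher. With every probe set fitted on its own, 6 of 7 NR4A1 probe sets were called higher in LR3 against parental cells. Of 6 ZFP36L1 probe sets 4 were called lower in LR3 and 1 in LR2. The share called of all 49293 probe sets fitted is not given here. By gene 21.6% were called in LR3 and 22.5% in LR2. Probe sets of 1 gene on the same arrays are not independent. The other 5 ZFP36L1 probe sets had LR3 differences of -0.55 to -0.29, smaller in size than the -1.54 of the brightest. Their LR2 differences were -0.26 to 0.09, of which 2 were not lower. In order of brightness these 5 were above the floor on 6, 1, 0, 0 and 0 arrays, with 5.86 as their highest signal. The brightest ZFP36L1 probe set lay between 9.48 and 11.21. Differences near or below the floor have no exact size. These 5 therefore cannot decide the size of the LR3 difference or the LR2 call. IER2, IER3 and ZFP36 had 1 probe set each, so they have no such check.

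**Figure D4:**
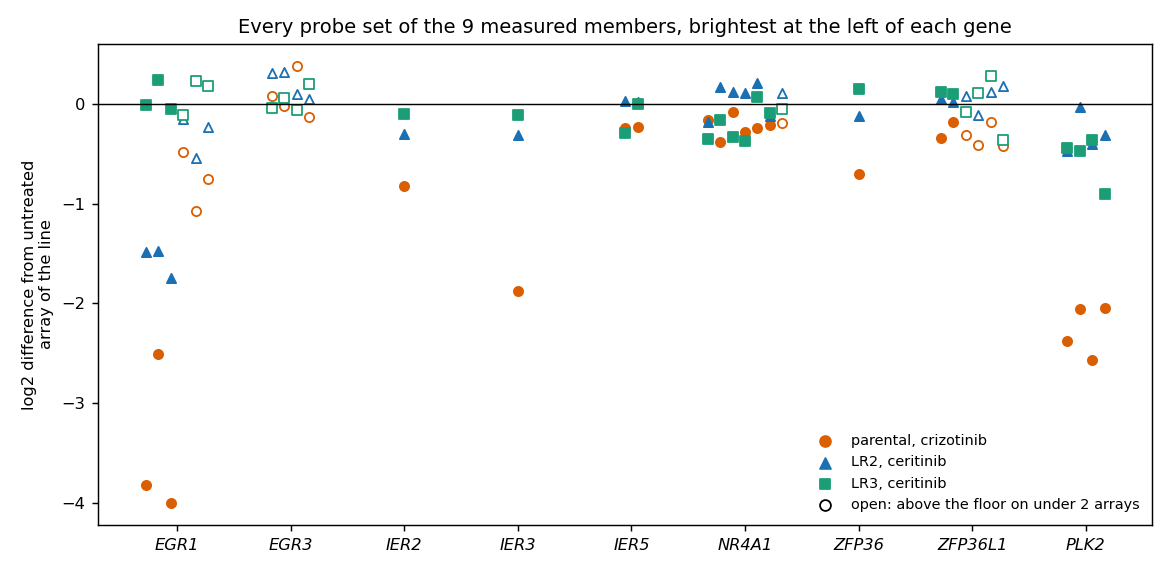
Log2 difference from the untreated array of the line for each probe set of the 9 measured members, for parental cells with crizotinib (circles), LR2 with ceritinib (triangles) and LR3 with ceritinib (squares); open symbols are probe sets above the floor on under 2 arrays. In parental cells with crizotinib 3 brighter EGR1 probe sets lie between -4.0 and -2.51, and the differences of 3 dim ones are smaller in size.

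EGR3 had 4 probe sets, and its brightest lay between 4.70 and 5.04 on the 8 arrays, below the floor. Its differences with inhibitor were -0.04 to 0.31. At this signal EGR3 did not enter the tests, which does not show that the gene is silent or unaffected.

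Genes of the same pathway outside the family were taken from 4 lists. Of 28 tested other immediate early genes 0 were called in either direction with inhibitor across lines. At an unadjusted p under 0.05 in limma 13 were lower and 1 higher, against 25.4% of all tested genes in either direction. Their median differences were -0.60, -0.49 and -0.44 in the parental crizotinib, parental ceritinib and LR2 crizotinib arrays, and -0.07 and -0.02 in LR2 and LR3 with ceritinib. FOS was lower by smaller amounts than EGR1, at -0.75 and -0.82 in parental cells, -0.45 and -0.06 in LR2, and 0.13 in LR3. FOSL2 had the opposite sign, at 1.82, 1.5 and 2.04 in those first 3 arrays. Both are named after their values were seen.

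Of 17 tested delayed ERK output genes 0 were called with inhibitor across lines. At an unadjusted p under 0.05 in limma 11 were lower, against 25.4% of all tested genes in either direction. Their medians were -1.66, -1.75 and -1.68 in the same 3 arrays, and -0.07 and -0.11 in LR2 and LR3 with ceritinib. DUSP6, an ERK phosphatase, had the lowest difference of the list in those 3 arrays and is named outside the rule on called genes. It differed by -4.48, -5.02 and -4.53 there and by -0.28 and -0.13 with ceritinib in LR2 and LR3. In LR2 with ceritinib EGR1 was further below its untreated level than DUSP6 was, -1.48 against -0.28.

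Differences of the 15 tested regulators of the family ran both ways, with medians of -0.08, -0.02 and -0.03 in the same 3 arrays. Apart from NAB2, given below, they reached -0.75 for ELK3 and -0.65 for NAB1 in parental cells with crizotinib. On that array the highest were 0.57 for MRTFB and 0.65 for RPS6KA5. These genes are named after their values were seen. With inhibitor across lines 1 was called higher, the ERK-activated kinase RPS6KA5 at 0.44 ± 0.07 (limma adjusted p = 0.0335), and 0 lower. Of all tested genes 3.02% were called higher and 0.256% lower in this test, and 0 were called with quantile normalization. NAB2, a corepressor of EGR proteins that is itself an EGR target, had the lowest difference of the list in 4 of 5 inhibitor arrays, at -1.29, -1.55, -1.17 and -0.76 in parental with crizotinib, parental with ceritinib, LR2 with crizotinib and LR2 with ceritinib, and it differed by -0.03 in LR3. Both parental NAB2 values with inhibitor were below the floor. NAB2 is named after its values were seen. Of 12 tested AU-rich element transcripts, the kind that ZFP36 and ZFP36L1 act on, 1 was called lower across lines, the cell cycle inhibitor CDKN1A at -0.48 ± 0.10 (adjusted p = 0.0481). The same test gave this call, so the shares and the loss with quantile normalization given for RPS6KA5 hold here too. The medians of this list were -1.0, -0.85 and -0.66 in the same 3 arrays, and -0.07 and -0.21 with ceritinib in LR2 and LR3.

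In the inhibitor responses within each line, in both differences between responses and between the agents, limma called 0 genes of the 4 lists in either direction. Numbers at an unadjusted p under 0.05 for other immediate early genes, delayed ERK output genes, regulators and AU-rich element transcripts (28, 17, 15 and 12 tested) were 16, 11, 6 and 10 in parental cells, against 17.6% of all tested genes. They were 4, 0, 6 and 0 in LR2 (9.64%) and 0, 0, 2 and 1 in LR3 (4.74%). They were 1, 0, 0 and 0 for the response of LR2 against parental cells (2.38%), 4, 2, 3 and 2 for that of LR3 (4.8%), and 11, 7, 5 and 4 between agents (6.05%).

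**Figure D5:**
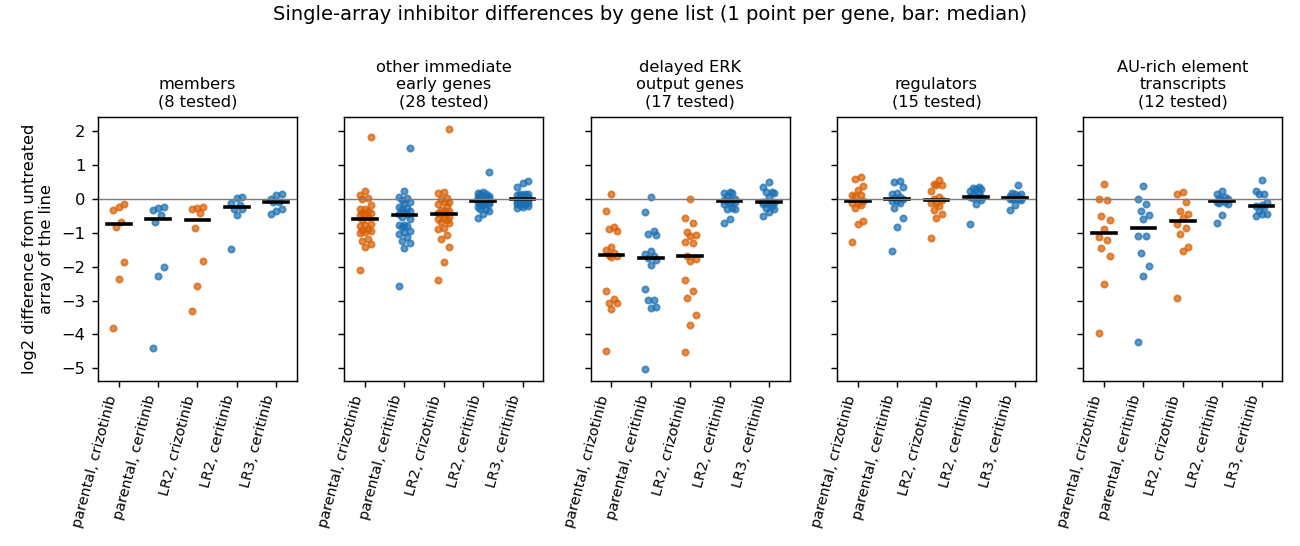
Log2 difference of each inhibitor array from the untreated array of its line for the members and 4 other gene lists; each point is 1 tested gene and the black bar the median, orange crizotinib and blue ceritinib. The medians of the members are -0.76, -0.59, -0.63, -0.24 and -0.10 from left to right, and those of delayed ERK output genes -1.66, -1.75, -1.68, -0.07 and -0.11.

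Between lines, 4 of 28 other immediate early genes were called higher in LR2 (KLF10 at 0.83, NFKBIZ at 0.82, SGK1 at 0.52 and ZFP36L2 at 0.50) and 0 lower, against 12.8% of all tested genes called higher. In LR3 5 were higher and 0 lower (9.53% of all genes called higher), led by the transcription factor KLF2 at 1.29, the small GTPase RHOB at 1.24, KLF6 at 0.66 and the stress factor ATF3 at 0.41. ZFP36L2, named here as a paralog of ZFP36L1, rose in both lines, by 0.50 in LR2 and 0.31 in LR3, where ZFP36L1 fell. Of AU-rich element transcripts 3 were higher and 1 lower in LR3 (PTGS2 at 1.41, CDKN1A at 0.85, PIM3 at 0.42 and CCL20 at -0.66) and 0 in LR2. Among regulators 4 of 15 were higher in LR2 (the EGR corepressor NAB1 at 0.58, the ETS factor ELK3 at 0.51, SRF at 0.43 and the kinase RPS6KA3 at 0.41) and 0 lower, with 0 called in LR3. Of delayed ERK output genes SPRY2 was higher in LR2, at 1.33, and in LR3 ETV4 was higher at 0.85 and HMGA2 lower at -1.85. Between LR3 and LR2, 3 other immediate early genes were higher, with RHOB at 1.54 and KLF2 at 1.22, and 3 lower, with KLF10 at -0.88 and SGK1 at -0.84. In the same test 1 delayed ERK output gene was higher (ETV4 at 0.58) and 1 regulator lower (NAB1 at -1.12). Of AU-rich element transcripts 3 were higher, with PTGS2 at 2.12 and CDKN1A at 1.11, and 1 lower (CCL20 at -0.55). The comparisons of LR2 and LR3 share the parental arrays.

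The genes nearest to EGR1 in pattern were DUSP5, PHLDA1, EPHA2, SHISA2 and PTPRE, with root mean square differences of 0.53 to 0.66 between gene-centred log2 profiles over the 8 arrays. DUSP5 was at 7.99, 5.27 and 4.81 in parental cells without inhibitor, on crizotinib and on ceritinib, and at 7.31, 4.38 and 6.70 in LR2. Among members the nearest to EGR1 was PLK2, at 0.73, and PLK2 and IER3 were 0.52 apart. IER2 and ZFP36 were the closest pair, at 0.15. The measure takes in the size of the differences, so genes with small spans lie near each other by construction. All profiles share the same 8 arrays.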

How the data were processed

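Total RNA from 8 conditions, 1 array each, was labelled with biotin after 3' IVT amplification and measured on single-colour arrays, per the labels' protocols. The authors deposited log2 signals for 49395 probe sets, and RMA is the method that the submitters' processing notes name. Its software and version are not given in the sources used here. Of these probe sets 102 were controls and 44988 of the others had 1 gene symbol, for 18132 genes. Genes entered the tests with a signal above 5.36, the 50th percentile over all arrays, on at least 2 arrays.

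Fits used limma 3.58.1 in R 4.3.3, with Benjamini-Hochberg adjustment over 10527 genes and calls at an adjusted p under 0.05. Line and agent comparisons had terms for line and agent (3 residual degrees of freedom, 2 with the added LR2 ceritinib term), inhibitor responses terms for line and inhibitor or none (4), or 6 cells of line by inhibitor or none (2). The arrays come from no labelled replicate cultures, so the p-values do not measure the spread between replicates. They measure how far single arrays depart from these terms, with a part of the spread shared over genes by limma. In the fits of 6 cells that departure is the gap between agents in parental and LR2 cells. Scripts were tested on simulated data. Alternatives were other scalings, summaries, filters and models, subsets of arrays and each array left out.

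The members and lists were chosen with earlier results of these data known. Counts cover all 8 tested members in every comparison, and estimates are printed for some of them. Up to 4 called genes of each other list are named in a comparison, and genes outside this rule are marked. The symbols are those of the probe table.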

Additional observations from a re-analysis of the deposited data

Results flagged for a closer look

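The difference from parental cells was not the same in the 2 resistant lines for ZFP36L1 and NR4A1, by the limma test of LR3 against LR2, which share the parental arrays as reference. ZFP36L1 was lower in LR3 than in LR2 by a log2 difference of -1.06 (adjusted p = 0.000632), with both lines below parental cells. NR4A1 was higher in LR3 than in LR2 by 0.55 (adjusted p = 0.00543), and LR2 did not pass the test against parental cells. This NR4A1 call was lost with matched arrays alone (0.52, adjusted p = 0.0624) and without the untreated LR3 array (0.51, adjusted p = 0.0617). Groups of 1 array allowed no search for outlying samples.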

How the results depend on the processing

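For each inhibitor response within a line and for both differences between responses, 0 members were called under every alternative run. Across lines 0 were called, 2 with the crizotinib and untreated arrays of parental and LR2 cells alone (chosen after seeing the data), and 0 to 5 with 1 array left out. Without _x_at and _s_at probe sets 4 members were tested (EGR1, IER5, NR4A1 and PLK2). ZFP36L1 was not among them, so its calls between lines could not appear in that setting. For LR2 against parental cells the number called was 1, with 0 for the mean of all probe sets, 0 without _x_at and _s_at probe sets and 0 to 2 with 1 array left out. For LR3 against parental cells it was 2, with 0 for matched arrays of the 2 lines, 1 without _x_at and _s_at probe sets and 1 to 3 with 1 array left out. For LR3 against LR2 it was 2, with 1 without _x_at and _s_at probe sets and 1 to 4 with 1 array left out, and with matched arrays the 2 called were ZFP36L1 and PLK2 instead of ZFP36L1 and NR4A1. Between agents it was 0, and 0 to 4 with 1 array left out. The added term for the LR2 ceritinib array called 0 under every alternative run for it. The PLK2 difference of LR2 from parental cells, 0.09, ranged from -0.55 to 0.45 with 1 array left out and reversed without the parental ceritinib array.

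Over all genes the 345 calls across lines became 0 with quantile normalization, 145 with centring, 206 without _x_at and _s_at probe sets, 91 without a filter on dim genes, 15 and 0 with crizotinib or ceritinib beside the untreated arrays alone, and 0 to 1027 with 1 array left out. The 2369 calls of LR2 against parental cells became 1478 without an agent term and 1146 to 2116 with 1 array left out. The 2274 of LR3 became 0 with matched arrays and 632 to 2311 with 1 array left out, and the 2064 of LR3 against LR2 became 544 and 710 to 2630. The cause of these shifts was not tested. No paired analysis was possible because the labels give no replicate numbers, and matching by line is already in the fits through the line term. Signals near the floor of 5.36 limit the EGR1, PLK2 and EGR3 differences.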
